A study of Mus musculus with 25 samples.

Results

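The genes described here are 9 regulators of the posterior body axis and of retinoic acid, namely the caudal-type homeobox genes *Cdx1*, *Cdx2* and *Cdx4*, the anterior *Hox* genes *Hoxb1* and *Hoxb2*, the retinoic acid receptors *Rarb* and *Rarg*, and the retinoid enzymes *Cyp26a1* and *Dhrs3*. They were taken by name, as the rows of the count table whose Ensembl identifier carries one of these symbols, and all 9 of the 9 were found among 48440 genes. The question was whether posterior gene expression beyond *Cdx1*, a β-catenin target, followed β-catenin activity. RNA came from E14 cells, a feeder-free mouse embryonic stem (ES) cell line kept in serum with leukemia inhibitory factor. Unedited wild-type cells received 0, 2.5, 5, 7.5 or 10 µM CHIR99021, an inhibitor of the kinase that marks β-catenin for degradation, for 48 h, with 2 libraries per dose. The other 15 libraries came from 15 clonal lines without CHIR99021, each with 1 of 11 missense mutations at codon 37, 41 or 45 of 1 *Ctnnb1* allele, brought in through a selection cassette that unedited cells never carried. The study gave each mutation a mutational effect score (MES), an activity score from a reporter screen in other ES cells. Following its high, medium and low MES categories, 9 clones were strong, 3 were medium and 3 were weak. The study reached these categories by clustering the expression of these same clones, so comparisons between classes are not independent of the data. The strong mutations were T41I (clones A6 and B9), T41A (C1 and E6), S37F (G1 and H2), S37A (A10), S37C (G12) and S37Y (A5). The medium ones were S45P (G5) and S45F (C1 and D9), and the weak ones were S45C (D3), T41N (D3) and T41S (H8). Each library is 1 culture or clone as far as the labels show, and nothing states that the libraries of a dose were grown separately, so p-values measure the spread between these libraries.

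In the embryo, Wnt signaling through β-catenin opens the tail end of the body axis to expression of the *Cdx* genes, and the transcription factors they encode in turn help to switch on *Hox* genes, whose order along the chromosome matches their order along the body. Retinoic acid, made from vitamin A, works against and together with this system through nuclear receptors (RARs) that sit on response elements near genes such as *Hoxb1*, *Rarb* and *Cyp26a1*. CYP26A1 breaks retinoic acid down, and DHRS3 turns its precursor retinaldehyde back into retinol, so both lower the amount of the ligand.

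Levels are given in CPM, the count of unique molecules read at the 3′ ends of transcripts, scaled to the total of the library. Libraries held 306157 to 2083398 counts. A count of 0 allows up to 3 counts, between 1.44 and 9.80 CPM depending on the library, and the highest of these limits belongs to 10 µM replicate 1, the shallowest library. Intervals and limits cover counting error only. Of 8 ES cell markers, all 8 had counts in each class and dose, with summed levels of 1666 to 4730 CPM and *Pou5f1* the lowest of them. The share of counts on mitochondrial genes was 1.53 to 2.52% in the clones and 0.485 to 1.46% in the unedited libraries, without overlap, so a difference between clones and unedited cells cannot be told apart from a difference between these 2 sets of libraries. Since the RNA is bulk, fewer expressing cells and less RNA per cell cannot be told apart either.

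RefSeq promoter windows (GRCm38.p6) of 7 of the 9 members, all but *Cdx1* and *Hoxb2*, were searched on both strands for DR5. This is the direct repeat to which retinoic acid receptors bind. As searched, it is the word AGGTCA or the word AGTTCA or the word GGGTCA or the word GGTTCA, followed by any 5 bases and by a second one of these words. It occurred in 32 of 32851 windows (0.0974%), and among the members in *Cyp26a1* and *Rarb*. The same windows were searched for DR2 (these words spaced by any 2 bases), for TCF/LEF words (CTTTGAA or CTTTGAT or CTTTGTA or CTTTGTT) and for CDX words (TTTATG or TTTATT), which occurred in 0.268%, 16.9% and 27.6% of all windows. Among the 7 members, *Dhrs3* alone held a TCF/LEF word and a CDX word, and none held DR2. *Hoxb2* had no usable window, and windows on the chromosome of *Cdx1* were skipped in the search of members. Whether *Cdx1* holds any of these words was thus not examined. The 250 bases before the *Cyp26a1* and *Rarb* starts are shown because these are the 2 members with a DR5 match. The capitals mark the DR5 match.

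*Cyp26a1*, chr19:37697558-37697807, plus strand: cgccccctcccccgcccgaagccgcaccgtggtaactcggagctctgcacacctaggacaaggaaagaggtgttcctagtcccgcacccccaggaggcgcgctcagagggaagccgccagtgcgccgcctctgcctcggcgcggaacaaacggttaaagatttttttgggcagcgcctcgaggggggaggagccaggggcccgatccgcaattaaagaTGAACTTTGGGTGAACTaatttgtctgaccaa
*Rarb*, chr14:16575477-16575726, minus strand: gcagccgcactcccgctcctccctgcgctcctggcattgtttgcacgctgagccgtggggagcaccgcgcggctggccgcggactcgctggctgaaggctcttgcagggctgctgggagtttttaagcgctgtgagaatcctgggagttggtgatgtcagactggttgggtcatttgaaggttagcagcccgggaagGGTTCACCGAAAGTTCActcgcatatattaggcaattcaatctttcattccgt

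The *Rarb* window lies at a start inside the annotated gene (GRCm38 chr14:16430839-16819156, minus strand). In *Cyp26a1* (chr19:37697798-37701536, plus strand) the match reads on the opposite strand to the gene. A match describes letters in the window and is no evidence of binding.

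With rising CHIR99021, *Cdx1*, *Cdx4*, *Hoxb1*, *Hoxb2* and *Cyp26a1* rose, *Dhrs3* was lowest at the middle doses, and *Cdx2*, *Rarb* and *Rarg* were called in no fit of the dose. Only 4 members (*Cdx1*, *Cyp26a1*, *Dhrs3* and *Rarg*) had enough counts to pass the filter on low counts in this series of 10 libraries. In the edgeR fit of the dose as a number, 2 of these 4 were called, both up, where 12.5% of all genes tested were called in either direction. When all genes with a count were fitted, 6 of the 9 members were called, 5 up and 1 down, against 6.67% of all genes.

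*Cdx1* (ENSMUSG00000024619.8, GRCm38 chr18:61018862-61036199, minus strand), the caudal gene first switched on in the primitive streak, gives the scale of the response. Its levels were 27.7 and 28.7 CPM in untreated cells, 92.0 and 87.7 CPM at 2.5 µM, 222 and 190 CPM at 5 µM, 228 and 256 CPM at 7.5 µM and 307 and 291 CPM at 10 µM. No library of one dose overlapped with those of the next. The log2 slope was 0.30 ± 0.03 per µM (SE; edgeR adjusted p = 8.22e-09). It was the 1 of 4 tested members called between 0 and 2.5 µM (3.23-fold, 95% interval 2.46 to 4.26; adjusted p = 3.50e-07), a step in which 2.32% of genes were called.

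*Cdx4* (ENSMUSG00000031326.2, chrX:103321398-103330592, plus strand), the caudal family member of the tail bud, was at or below 0.762 CPM in the 4 libraries of 0 and 2.5 µM, with 2 counts in all. It then stood at 3.29 and 3.36 CPM at 5 µM, 2.90 and 8.07 CPM at 7.5 µM, and 6.53 and 7.53 CPM at 10 µM. The 6 libraries from 5 µM upwards were all above the 4 others, although single libraries held only 2 to 14 counts. The counts summed over 5 to 10 µM gave a level 12.6 times that of 0 and 2.5 µM together (counting interval 3.25 to 107). The slope in the fit of all genes with a count was 0.38 ± 0.08 per µM on the log2 scale (SE; edgeR adjusted p = 0.00032).

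*Hoxb1* (ENSMUSG00000018973.2, chr11:96365752-96368256, plus strand) encodes a transcription factor of the anterior hindbrain. It had 1 count in the 4 libraries of 0 and 2.5 µM, and 0 and 1.44 CPM at 5 µM. At 7.5 µM it reached 5.08 and 3.46 CPM and at 10 µM 3.27 and 4.52 CPM, so the 4 top-dose libraries were above the 6 others. Its slope was 0.41 ± 0.11 per µM (SE; adjusted p = 0.00441, all genes with a count).

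*Hoxb2* (ENSMUSG00000075588.6, chr11:96350525-96354012, plus strand), the neighbor of *Hoxb1* that also acts in the hindbrain, was at 0 in all 4 libraries of 0 and 2.5 µM. From 5 µM on it had counts in each library, with 1.65 and 2.40 CPM at 5 µM, 2.18 and 1.15 CPM at 7.5 µM, and 3.27 and 5.27 CPM at 10 µM. Single libraries held 1 to 7 counts, and the levels at 5 and 7.5 µM overlapped. The slope was 0.43 ± 0.12 per µM (SE; adjusted p = 0.00727, all genes with a count). The antisense gene *Hoxb3os*, which overlaps *Hoxb2*, had 7 counts in the 25 libraries, and reads of the pair cannot be told apart if strand was ignored in counting.

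*Cdx2* (ENSMUSG00000029646.3, chr5:147300805-147307270, minus strand), which also marks the trophoblast, stayed between 0 and 2.30 CPM in 9 of the 10 unedited libraries. The exception, 5 µM replicate 1, stood at 9.87 CPM on 6 counts, while its partner at the same dose was at 1.92 CPM. Its slope of 0.14 ± 0.10 per µM missed the threshold (SE; adjusted p = 0.493, all genes with a count).

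**Figure D1:**
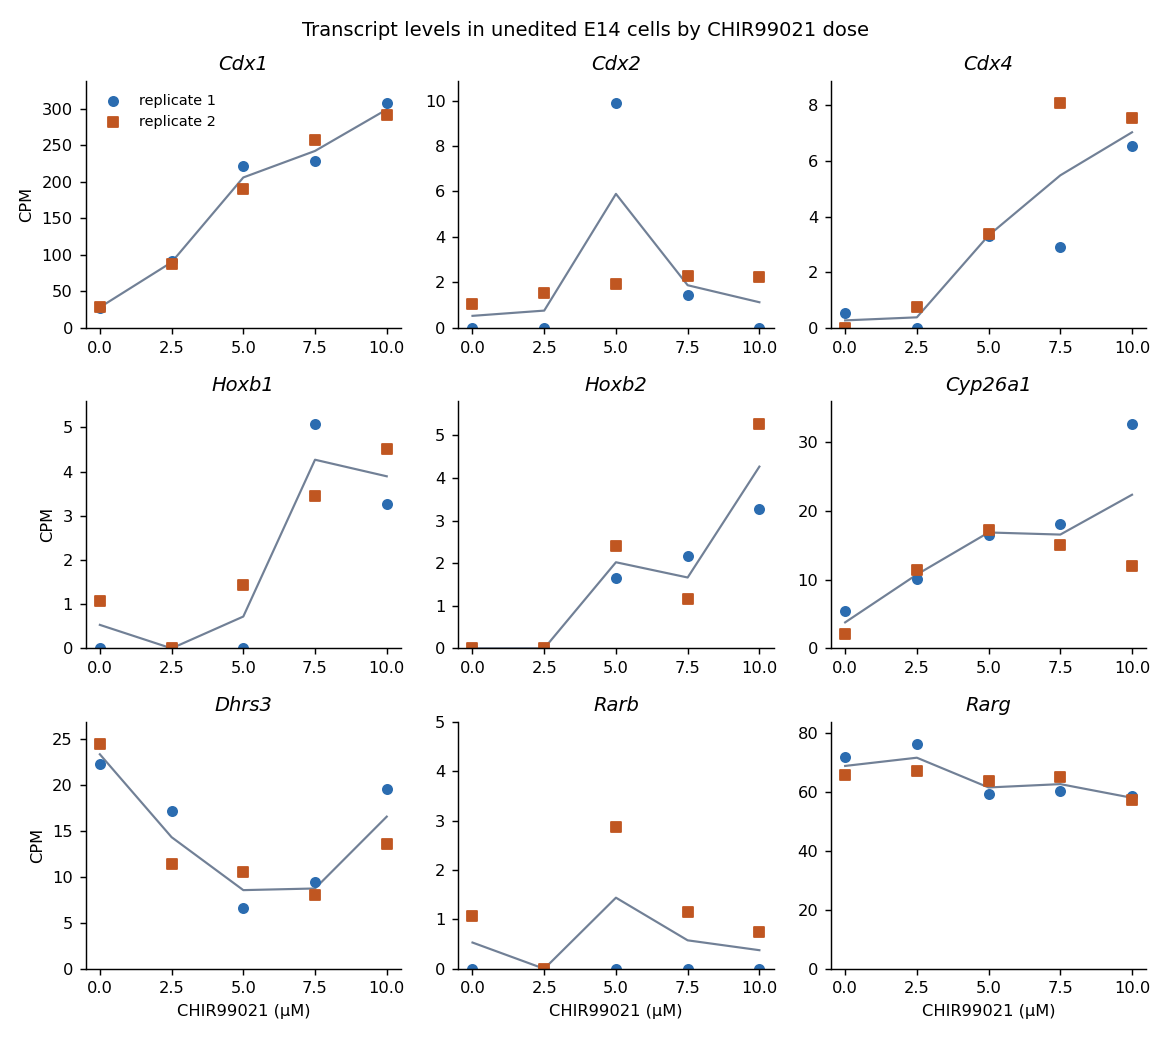
Transcript levels of the 9 genes in CPM (vertical axes, each starting at 0) against the CHIR99021 dose in µM in unedited E14 cells. Circles and squares are the 2 libraries of a dose and the line joins their means. *Cdx1* climbs at each dose, *Cdx4* and *Hoxb2* leave the baseline at 5 µM and *Hoxb1* at 7.5 µM, and the *Cyp26a1* value of 32.7 CPM at 10 µM is 1 library.

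*Cyp26a1* (ENSMUSG00000024987.5) encodes the enzyme that degrades retinoic acid. It was at 5.44 and 2.13 CPM in untreated cells and at 10.1 and 11.4 CPM at 2.5 µM. At 5 µM it stood at 16.5 and 17.3 CPM, at 7.5 µM at 18.1 and 14.98 CPM, and at 10 µM at 32.7 and 12.05 CPM. The levels of all 8 treated libraries were above those of both untreated ones, while from 5 µM on the doses overlapped. Its log2 slope was 0.16 ± 0.04 per µM (SE; edgeR adjusted p = 0.0156), and the call was lost without either untreated library (adjusted p = 0.157 and 0.0847). *Cyp26a1* had passed the filter through the treated libraries, where it was high. The fit of all genes with a count gave the same slope of 0.16 ± 0.04 per µM (SE; adjusted p = 0.00373).

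Between 0 and 10 µM, where 10.1% of genes were called, *Cdx1* (10.7-fold, 95% interval 8.36 to 13.6) and *Cyp26a1* (3.80-fold, 1.86 to 7.75; edgeR adjusted p = 0.0121) were called of the 4 tested members. For *Cyp26a1* that call was lost without 10 µM replicate 1 (adjusted p = 0.0991) or without 0 µM replicate 2 (adjusted p = 0.0713). Its log2 change of 1.93 became 1.48 without 10 µM replicate 1, 2.95 without 10 µM replicate 2 and 2.88 without 0 µM replicate 1.

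*Dhrs3* (ENSMUSG00000066026.14, chr4:144892827-144928209, plus strand), the retinaldehyde reductase, went the other way. It was at 22.3 and 24.5 CPM in untreated cells and at 17.2 and 11.4 CPM at 2.5 µM. It was at 6.58 and 10.6 CPM at 5 µM and at 9.43 and 8.07 CPM at 7.5 µM, and stood at 19.6 and 13.6 CPM at 10 µM. Every treated library was below both untreated ones, but the libraries at 10 µM were above those at 5 and 7.5 µM. The slope was −0.11 ± 0.04 per µM (SE; adjusted p = 0.0614), and it passed with log2 of the dose plus 1 as the predictor (adjusted p = 0.00631).

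The receptors moved little. *Rarg* (ENSMUSG00000001288.14, chr15:102234938-102257517, minus strand) encodes the receptor typical of the early embryo, and its levels ran from 57.2 to 76.2 CPM over the 10 unedited libraries with a slope of −0.03 ± 0.02 per µM (SE; adjusted p = 0.327). *Rarb* (ENSMUSG00000017491.8), the receptor gene that is itself a retinoic acid target, had 10 counts in the 10 unedited libraries together and never exceeded 2.88 CPM. Of the 2 genes with a DR5 match shown above, *Cyp26a1* rose over the doses. *Rarb* remained near the limit of detection, with a slope of 0.08 ± 0.13 per µM (SE; adjusted p = 0.796, all genes with a count). Its summed counts were 9 at 5 to 10 µM and 1 at 0 and 2.5 µM (ratio of levels 5.79, counting interval 0.803 to 254). Whether the 2 genes differed in their response cannot be told from so few counts. *Rarb* also overlaps *Top2b* on the opposite strand, a gene with 1574 counts over the 25 libraries.

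In the clones, *Cdx1* was the only member called as rising with the strength of the mutation. In the edgeR fit against MES over 15 clones, it was the 1 member called of 2 past the filter, where 22.9% of genes were called. With all genes with a count in the fit, it was again the 1 member called of 9, against 12.5% of genes. Its slope was 1.33 ± 0.14 per 10000 units of MES on the log2 scale (SE; adjusted p = 2.08e-06), and that of *Rarg* was 0.05 ± 0.07 (adjusted p = 0.639). Without the filter, slopes were positive for *Hoxb1* (0.89 ± 0.53), *Cdx4* (0.63 ± 0.47) and *Cdx2* (0.26 ± 0.40). They were negative for *Dhrs3* (−0.71 ± 0.29), *Cyp26a1* (−0.60 ± 0.27), *Rarb* (−0.26 ± 0.51) and *Hoxb2* (−0.25 ± 0.45). On such low counts, the lack of a call does not show that a member stayed level.

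The level of *Cdx1* in weak clones was 32.3, 34.7 and 35.6 CPM for T41N, S45C and T41S. Medium clones were at 61.2, 68.8 and 81.6 CPM, and strong clones ranged from 115 (T41A clone C1) through a median of 258 to 334 CPM (S37F clone G1). The 3 classes, which the study drew by clustering the expression of these clones, did not overlap. Weak clones differed from untreated cells by 0.28 ± 0.33 on the log2 scale (SE; edgeR adjusted p = 0.552, interval 0.773 to 1.90 as a fold). The range of the strong clones enclosed that of the 4 libraries of 7.5 and 10 µM, which was 228 to 307 CPM. Means were 247 ± 59.8 CPM (SD, n = 9) and 270 ± 35.4 CPM (SD, n = 4), a fitted ratio of 0.906 (95% interval 0.742 to 1.11; edgeR adjusted p = 0.444).

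At this similar mean level of *Cdx1*, the 4 genes that had risen with it over the doses were low in the strong clones. Of the 5 members tested in the comparison of strong clones with the top doses, *Cyp26a1*, *Cdx4* and *Dhrs3* were lower and *Rarg* was higher in the clones, where 47.0% of all genes were called. With all genes with a count in the fit, *Hoxb1* and *Hoxb2* were lower as well, which made 6 of 9 members called against 22.2% of genes. *Cdx4* passed the filter through the top-dose libraries and *Cyp26a1* mostly through treated ones, while *Hoxb1* and *Hoxb2* did not pass it.

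*Cdx4* was at 0 in 3 of 9 strong clones and had a median of 0.599 and a highest level of 2.07 CPM in T41I clone B9. All 4 top-dose libraries, between 2.90 and 8.07 CPM, lay above all strong clones. As *Cdx4* had passed the filter through the group where it was high, the fit of all genes with a count is given. There the log2 difference was −2.91 ± 0.58 (SE; edgeR adjusted p = 8.74e-06). The summed counts were 30 in 4 libraries against 10 in 9, a ratio of levels of 8.36 (counting interval 3.98 to 19.2). Strong clones and untreated cells did not differ measurably, with 10 counts against 1 (0.91 ± 1.21 on the log2 scale, SE; adjusted p = 0.587). The 1 count lay in 0 µM replicate 1, without which the fitted difference was 3.10 and was not called either.

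*Hoxb1* was at 0 in 4 of 9 strong clones, with a median of 0.743 CPM and a highest level of 2.23 CPM in S37A clone A10. It had no count in the 3 medium clones and 1 count in the weak ones. The top-dose libraries started at 3.27 CPM, and the log2 difference of strong clones from them was −2.19 ± 0.65 (SE; adjusted p = 0.00509, all genes with a count). Counts behind the top doses were 7, 6, 1 and 6 per library.

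*Hoxb2* was likewise at 0 in 4 of 9 strong clones and reached 1.02 CPM at most, below the lowest top-dose library at 1.15 CPM. That gap is under 1 count in any of the libraries. The log2 difference was −2.36 ± 0.77 (SE; adjusted p = 0.0123, all genes with a count), and the summed counts gave a level 6.04 times higher at the top doses (counting interval 2.14 to 19.4). T41N clone D3, a weak clone with the lowest depth of the clones, had 2.02 CPM on 1 count.

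*Cyp26a1* gave the plainest contrast because its counts were larger. Strong clones ranged from 0.689 (T41I clone B9) through a median of 1.60 to 4.27 CPM (S37F clone H2), and the top-dose libraries from 12.05 to 32.7 CPM. Even the cells at 2.5 µM, at 10.1 and 11.4 CPM, lay above all strong clones. *Cyp26a1* too had passed the filter through libraries where it was high, mostly treated ones, so the fit of all genes with a count is given. There the level in strong clones was 6.49-fold lower than at the top doses (log2 difference −2.70 ± 0.36, SE; edgeR adjusted p = 2.05e-12). It was not distinguishable from untreated cells (log2 difference −0.70 ± 0.56, SE; adjusted p = 0.517). With the filter, the difference from the top doses was −2.74 ± 0.39 (SE; adjusted p = 1.50e-06).

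The exact two-sided permutation test on the CPM of 9 strong clones and 4 top-dose libraries, run for each of the 9 members, gave p = 0.0028 for *Cdx4*, *Hoxb1*, *Hoxb2*, *Cyp26a1* and *Rarg*. That is the smallest p that the 715 arrangements allow. The exact test gave p = 0.0056 for *Dhrs3*, p = 0.52 for *Cdx1*, p = 0.89 for *Cdx2* and p = 0.79 for *Rarb*.

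**Figure D2:**
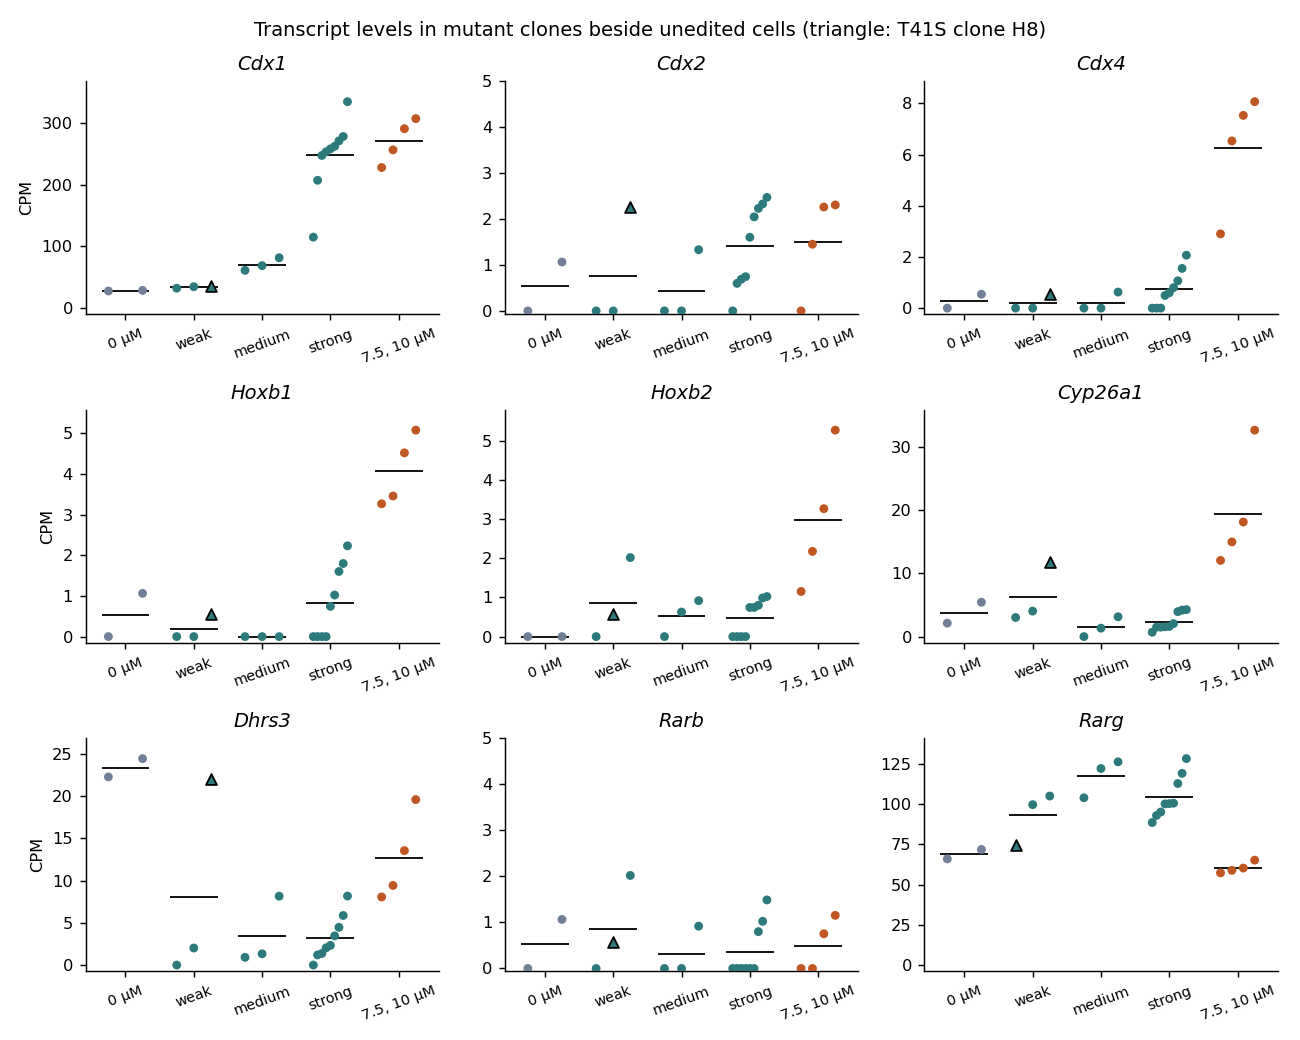
Transcript levels in CPM in untreated unedited cells (0 µM, 2 libraries), in weak (3), medium (3) and strong (9) clones, and in unedited cells at 7.5 and 10 µM CHIR99021 (4 libraries). Points are libraries, horizontal lines are means and the triangle is T41S clone H8. *Cdx1* reaches similar levels in the last 2 groups, whereas *Cdx4*, *Hoxb1*, *Hoxb2* and *Cyp26a1* are separated between them and *Rarg* is higher in all clones than in the 6 unedited libraries plotted.

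*Dhrs3* was lower in strong clones, at 0 to 8.18 CPM with a median of 2.33, than in untreated cells at 22.3 and 24.5 CPM. That difference was 6.85-fold (log2 −2.78 ± 0.55, SE; adjusted p = 0.000268) and 3 of 5 tested members were called in this comparison (*Cdx1* and *Rarg* up, *Dhrs3* down), against 34.0% of genes. Against the top doses, strong clones were 3.46-fold lower (adjusted p = 0.00646), with 1 clone (T41A clone E6 at 8.18 CPM) above the lowest top-dose library. The 3 medium clones were also low, at 0.917, 1.33 and 8.16 CPM.

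T41S clone H8, the clone with the lowest MES, stood apart for the retinoid genes. Its *Dhrs3* level was 22.03 CPM, that of untreated cells, while the 14 other clones were at 8.18 CPM or below. Its *Cyp26a1* level was 11.9 CPM and no other clone exceeded 4.27 CPM, and its *Rarg* level of 74.6 CPM was the lowest of all clones. In the comparison of strong with weak clones, where 32.5% of genes were called, *Cdx1* was higher (7.23-fold) and *Cyp26a1* and *Dhrs3* were lower (2.97-fold and 3.36-fold; adjusted p = 0.0145 and 0.0196) of 5 members tested. Without T41S only *Cdx1* remained, with log2 differences of −0.39 for *Cyp26a1* (adjusted p = 0.809) and 1.86 for *Dhrs3* (adjusted p = 0.398). Weak clones against untreated cells gave 0 of 5 members called where 32.6% of genes were called. Without T41S, *Dhrs3* was called there too (log2 difference −4.63, adjusted p = 0.00254), on 1 count in the other 2 weak clones.

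*Rarg* was the member whose level separated clones from unedited cells. It stood at 88.5 to 128 CPM in strong clones (median 100.2), at 104, 122 and 126 CPM in medium ones and at 74.6, 99.6 and 105 CPM in weak ones, against 57.2 to 76.2 CPM in the 10 unedited libraries. Only T41S fell within the unedited range. The increase was 1.51-fold over untreated cells (adjusted p = 0.00304) and 1.71-fold over the top doses (adjusted p = 7.40e-06), while its slope with MES missed the threshold. The clones also differed from all unedited libraries in mitochondrial share. Summed ES markers were 3687 to 4730 CPM in strong, 3507 to 4199 CPM in medium and 1666 to 2819 CPM in weak clones, against 2320 to 3260 CPM in unedited cells. The part of either in the *Rarg* difference was not tested. *Rarb* and *Cdx2* stayed at or below 2.02 and 2.47 CPM in the clones, with 7 and 24 counts over 15 libraries.

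**Figure D3:**
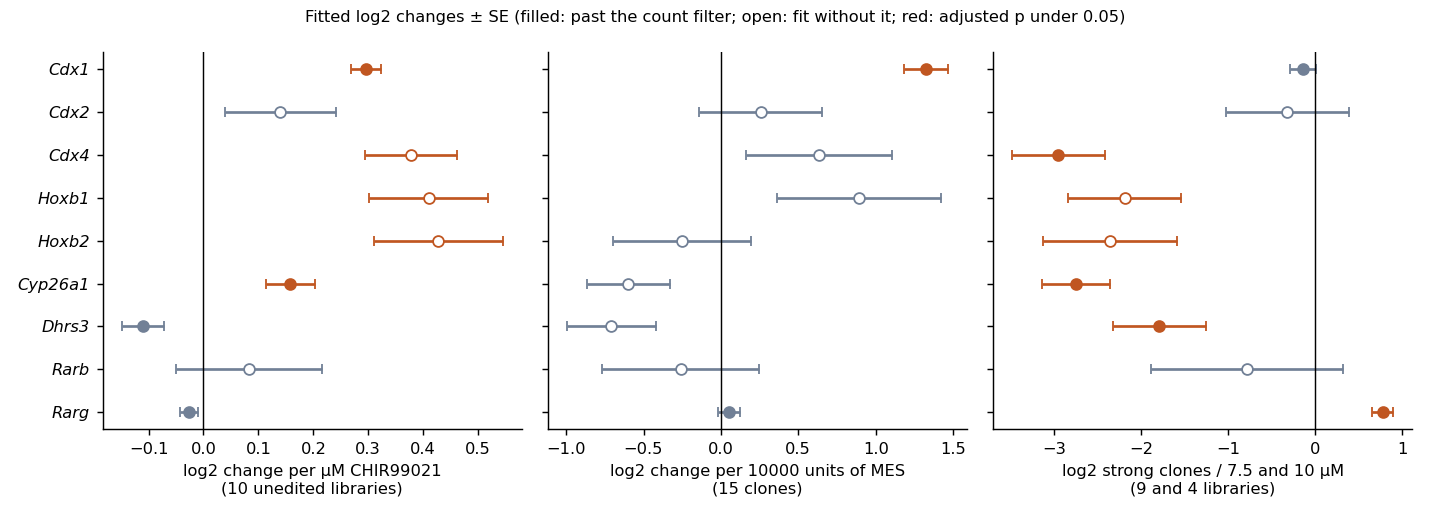
Fitted log2 changes ± SE of the 9 genes per µM of CHIR99021 (10 libraries), per 10000 units of MES (15 clones) and between strong clones and the top doses (9 and 4 libraries). Filled points passed the filter on low counts, open points come from the fit of all genes with a count, and red marks an adjusted p under 0.05. *Cdx1* is the only one of the 9 called in both trends, and it lies near 0 in the third panel.

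Other *Hox* genes also rose with the dose and were low in the clones. Of 37 listed, 35 had a count and 6 were tested against the dose. Of these 6, 5 rose and 0 fell, where 12.5% of all genes were called in either direction. The median log2 slope was 0.26 per µM, against 0.00 over all genes. Among the 5 that rose were *Hoxa7*, *Hoxa9*, *Hoxd8* and *Hoxd9*, which come from 2 clusters other than that of *Hoxb1* and *Hoxb2*. Summed over the untreated libraries, these genes had only 3, 3, 4 and 9 counts. They had thus passed the filter through treated libraries, where they were high. The 5 rises against 0 falls, and the median slope, were therefore in part set by the filter. The summed level of the 37 listed genes was 27.7 and 26.6 CPM in untreated cells, 43.1 and 39.6 CPM at 2.5 µM, and 118 and 120 CPM at 5 µM. It was 91.5 to 158 CPM at the top doses, and no library from 5 µM on overlapped with those below.

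In strong clones the summed *Hox* level was 22.8 to 54.8 CPM, in medium clones 13.8 to 18.6 CPM and in weak clones 22.6 to 42.4 CPM. All 15 clones were below all 6 libraries from 5 µM on. These 4 named genes, tested one by one, were lower in strong clones than at the top doses, with log2 differences from −1.19 (*Hoxa7*) to −3.91 (*Hoxa9*) and *Hoxd9* at 2.82 ± 1.29 CPM (SD, n = 9) against 22.5 ± 1.37 CPM (SD, n = 4). In this comparison 47.0% of all genes were called in either direction. *Hoxa9*, *Hoxd8* and *Hoxd9* had entered it through the higher doses, where they were high, as *Cdx4* had. *Hoxa7*, a trunk gene, was the exception among the 4, since it also rose in strong clones over untreated cells (log2 difference 2.35 ± 0.72, SE; adjusted p = 0.0119), from 1.08 ± 0.02 CPM (SD, n = 2) to 6.04 ± 3.24 CPM (SD, n = 9). The 1 *Hox* gene of the list tested against MES was not called.

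**Figure D4:**
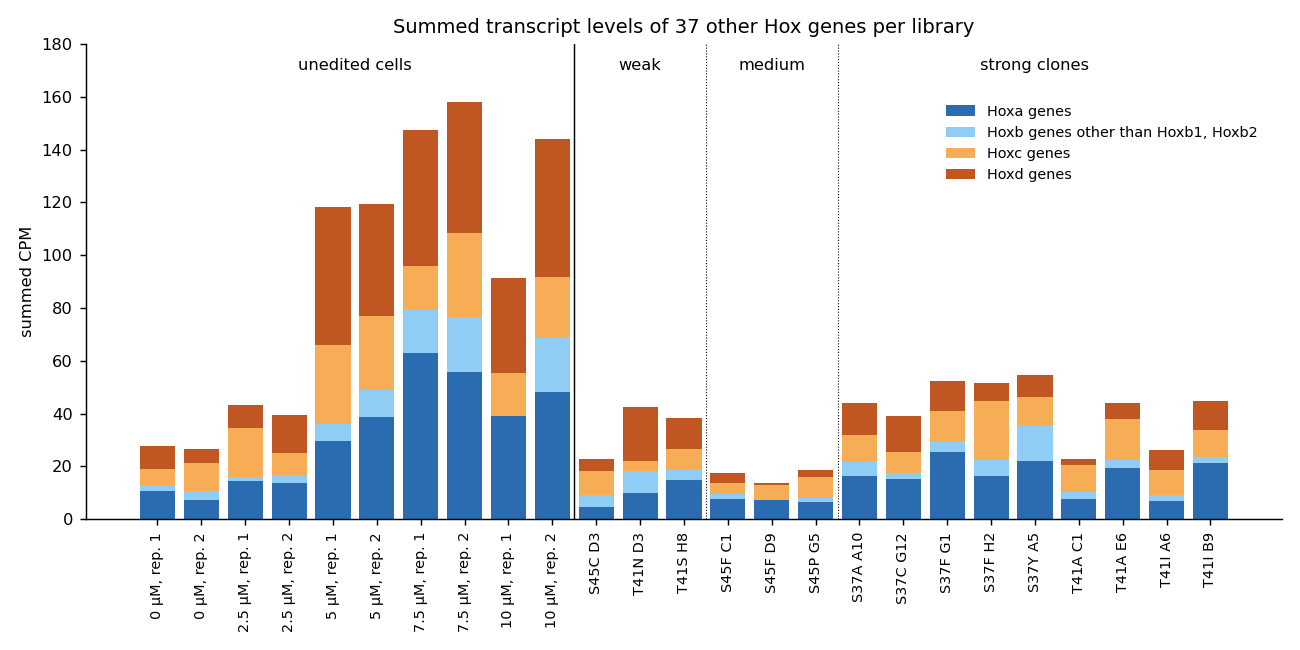
Summed CPM of the 37 other *Hox* genes in each of the 25 libraries, stacked by *Hox* cluster, with unedited cells by dose on the left and clones by class on the right. Sums from 5 µM on lie between 91.5 and 158 CPM and those of all clones between 13.8 and 54.8 CPM.

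Of 12 further genes of the posterior axis, 5 were tested against the dose, where 12.5% of all genes were called in either direction. *T* (Brachyury, the mesoderm and tail bud factor, also called *Tbxt*) and *Sp8* rose, by 0.27 and 0.31 per µM on the log2 scale, and *Fgf17* fell by 0.12 per µM. Against MES 3 were tested (22.9% of all genes were called), and *Nkx1-2*, a gene of the neuromesodermal region, rose by 1.22 per 10000 units while *Fgf17* fell by 0.70. *T* was at 9.78 and 10.6 CPM in untreated cells, 95.7 to 124 CPM at the top doses and 15.6 to 58.3 CPM in strong clones. Its level in strong clones was thus above untreated cells (3.29-fold; adjusted p = 0.00635) and below the top doses (3.27-fold; adjusted p = 2.51e-06). *T* was also higher in weak clones, at 8.07 to 48.6 CPM, than in untreated cells (3.03-fold; adjusted p = 0.0261), and its slope with MES was not called (log2 slope 0.23 ± 0.20 per 10000 units, SE; adjusted p = 0.450). Between strong clones and the top doses, 6 of 8 tested genes of this list were lower in the clones and *Nkx1-2* was higher (log2 difference 1.47 ± 0.48, SE; adjusted p = 0.0122), where 47.0% of all genes were called in either direction. Some of the 6 had passed the filter mainly through treated libraries, where they were high, so this count was in part set by the filter.

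The lower levels in the clones were not limited to posterior genes. Of 9 Wnt feedback and target genes, 8 were tested against the dose and all 8 rose (12.5% of all genes were called), and 7 of 8 were lower in strong clones than at the top doses (47.0% of all genes). Against MES, *Axin2* was the 1 gene called of 7 tested (log2 slope 0.44 ± 0.14 per 10000 units, SE; adjusted p = 0.0323), and *Lef1* was lower in strong than in weak clones (1.91-fold; adjusted p = 0.00571). *Axin2*, the negative feedback gene of the pathway, was at 14.8 ± 1.37 CPM (SD, n = 2) in untreated cells, 64.6 ± 17.7 CPM (SD, n = 9) in strong clones and 122 ± 16.9 CPM (SD, n = 4) at the top doses. The summed level of the 9 genes was 194 to 352 CPM in strong clones and 557 to 688 CPM at the top doses. No such difference was called for *Cdx1*, and the part of the lower Wnt target level in the low *Cdx4*, *Hoxb1*, *Hoxb2* and *Cyp26a1* was not tested.

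Of 15 other genes of retinoid metabolism, 5 were tested in each trend, and 1 was called for the dose (12.5% of all genes) and 2 for MES (22.9%). Between strong and weak clones, 4 of 7 tested genes of this list and 4 of 6 of the retinoic acid responsive list were called, against 32.5% of all genes. Between strong clones and the top doses it was 4 of 7 and 4 of 6, and also 4 of 6 receptor and corepressor genes, against 47.0%. *Rdh10*, the dehydrogenase that makes retinaldehyde and so works against DHRS3, rose with the dose (log2 slope 0.13 ± 0.03 per µM, SE; adjusted p = 0.00874) and fell with MES (log2 slope −1.14 ± 0.19 per 10000 units; adjusted p = 0.000186). Its levels were 7.61 and 10.6 CPM in untreated cells, 19.6 to 22.6 CPM at the top doses, 18.1 to 67.8 CPM in weak clones and 3.72 to 10.4 CPM in strong clones. *Crabp2*, which carries retinoic acid to the nucleus, fell with MES (log2 slope −0.90 ± 0.19; adjusted p = 0.00148). Among 7 receptor and corepressor genes, 6 were tested in each trend. *Rara* fell with the dose (log2 slope −0.12 ± 0.02 per µM; adjusted p = 0.000148) and *Rxra*, the partner of all RARs, rose with MES (0.34 ± 0.12; adjusted p = 0.0483). Of 8 other genes described as responding to retinoic acid, 3 were tested against the dose, and *Tgm2* was among those that fell. None of the 3 tested genes rose in either trend.

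Markers of other cell types were counted beside these results. Of 8 mesendoderm markers, *Mixl1* was the highest at the top doses (14.5 ± 3.06 CPM, SD, n = 4, against 1.78 ± 1.48 CPM, SD, n = 9, in strong clones), with summed levels of 23.0 to 32.7 and 9.66 to 37.8 CPM. The 2 tested genes of this list went opposite ways in that comparison. *Mixl1* was lower in strong clones (edgeR adjusted p = 1.69e-06), but it had passed the filter through other libraries, where it was high. *Eomes* was higher in strong clones, at 17.0 ± 7.16 CPM (SD, n = 9) against 7.72 ± 2.73 CPM (SD, n = 4; adjusted p = 0.00432). Of 12 trophoblast markers, a tissue in which *Cdx2* acts, 11 had a count at the top doses, with *Krt8* leading and the defining marker *Elf5* at 0, and summed levels were 856 to 928 CPM there, 235 to 459 CPM in strong and 987 to 3165 CPM in weak clones. Their part in the values of the members was not tested.

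Over all 25 libraries, the genes most like each member of at least 5 CPM on average were ranked by Pearson's *r* of log2(CPM + 1) among 7091 genes. For *Cdx1* they were *Pdgfa* (0.90), *Tmem181b-ps* (0.90) and *Grsf1* (0.89). For *Cyp26a1* they were *Cd63* (0.90), *Litaf* (0.88) and *Hcfc1r1* (0.88), for *Rarg* *Dppa2* (0.92), *Ier2* (0.92) and *Rpl7l1* (0.92), and for *Dhrs3* *Psme1* (0.85), *Nfatc4* (0.85) and *Ip6k2* (0.84). These libraries share doses, clones of the same mutation and depth, so the values describe this set only.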

How the data were processed

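Expression was measured by mcSCRB-seq, a bulk 3′ RNA-seq protocol with unique molecular identifiers, in 25 libraries. The deposited values are raw counts per gene. To make them, the authors trimmed reads with Cutadapt, handled identifiers with UMI-tools, removed ribosomal reads with SortMeRNA, aligned to mm10 with STAR, marked duplicates with Picard and counted with featureCounts, and did not normalize. Tool versions named in the submitters' notes include featureCounts 2.0.1. The annotation release and the strand setting of the counting are not given in the sources used here. Counting of 3′ ends leaves levels of different genes without a common scale, so levels were compared within genes only.

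From the counts, CPM were computed over library totals. Identifiers were matched to GENCODE M21 (48058 of 48440 matched, 40606 with an identical version). Tests used edgeR 4.0.16 in R 4.3.3 (quasi-likelihood F-test after TMM, genes kept by filterByExpr at a count of 10, Benjamini-Hochberg adjusted p under 0.05 over all genes tested), with the standard error taken from the log2 change and its F. There were 4 fits. The dose was fitted as a number (10033 genes) and as 5 groups (10674 genes) in the 10 unedited libraries, MES as a number in the 15 clones (10145 genes), and 8 groups in all 25 libraries (5 doses and 3 classes, 11375 genes). The comparisons from the last fit share untreated and top-dose libraries and strong clones. Top doses are the mean of 7.5 and 10 µM. Single values were also compared with exact permutation tests, and summed counts with exact Poisson and conditional binomial 95% intervals. MES values came from the study's reporter screen and are used as a predictor only. In simulated counts with 200 changed genes per comparison, the fits recovered the planted directions. The changes were planted at a fixed spread, in genes with more counts per library than *Cdx2*, *Cdx4*, *Hoxb1*, *Hoxb2* and *Rarb* had. The simulation therefore does not cover these members.

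The members, gene lists and tests were chosen with earlier results of these data known. All 9 members are named. Of the lists (37 other *Hox* genes, 12 posterior axis genes, 15 of retinoid metabolism, 7 receptors and corepressors, 8 retinoic acid responsive genes, 9 Wnt genes), those with an adjusted p under 0.05 in the dose or MES trend were named, at most 6 per list and trend (some of these genes are not reported here), and 5 lists of cell type markers were summed. Replicate numbers were not used as pairs, since deviations of equally numbered libraries correlated between −0.14 and 0.12 over pairs of doses. Alternatives were RLE normalization, no count filter, DESeq2 1.42.0, a replicate block, a block by mitochondrial share (set apart at 0.8%), log2 of the dose plus 1, counts summed per mutation, codon as a factor, rank of MES, and leaving out each library. All 25 columns of the table were used.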

Additional observations from a re-analysis of the deposited data

How the results depend on the processing

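Of the 126 values of single members recomputed under settings that keep all libraries, 122 kept their direction and side of the threshold, 2 gained a call, 1 lost it and 1 changed sign. Without the filter on low counts, called members rose from 2 to 6 in the dose trend and from 2 to 4 between 0 and 10 µM. With DESeq2, calls over all genes were 70 against 248 between 0 and 2.5 µM and 362 against 1074 between 0 and 10 µM. *Dhrs3* was called in the dose trend without the filter (adjusted p = 0.0460) and with log2 of the dose plus 1 (0.00631), and its call between strong and weak clones was lost in DESeq2 (0.191). The *Cdx4* difference of weak clones from untreated cells changed sign in DESeq2 (0.13 against −0.07, neither called). The cause of these changes was not tested. The replicate block changed no call of a member, and gave 1140, 231 and 916 genes for the dose trend and the steps to 2.5 and 10 µM. The mitochondrial block left *Cyp26a1* at a slope of 0.16 (adjusted p = 0.0135).

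Leaving out 1 library at a time, called members ranged from 1 to 3 in the dose trend (527 to 1325 genes), 1 to 1 from 0 to 2.5 µM (71 to 273), 1 to 3 from 0 to 10 µM (260 to 1167), 1 to 2 for MES (1199 to 2388), 1 to 3 between strong and weak clones (1958 to 3809), 0 to 1 between weak clones and untreated cells (1998 to 3557), 3 to 3 between strong clones and untreated cells (1626 to 4109), and 3 to 4 between strong clones and the top doses (3177 to 5531). The lowest counts over all genes came without 0 µM replicate 1, 10 µM replicate 2 or T41S. *Dhrs3* passed in the MES trend without S45C, when it passed the filter. Log2 differences changed sign, none of them called, for *Rarg* from 0 to 2.5 µM (−0.0494 to 0.19) and against MES (−0.0339 to 0.0815), *Dhrs3* between strong and weak clones (−2.20 to 1.86), *Cdx4* (−0.58 to 2.10) and *Cyp26a1* (−0.31 to 1.79) between weak clones and untreated cells, and *Cyp26a1* between strong clones and untreated cells (−1.06 to 0.23). Without 10 µM replicate 2, the *Dhrs3* difference between strong clones and the top doses lost its call (adjusted p = 0.0509). *Cdx4* fell under the filter without 7.5 µM replicate 2, without 6 of the strong clones and without T41S. Depth limits *Cdx2*, *Cdx4*, *Hoxb1*, *Hoxb2* and *Rarb*, whose levels lie near the limit that a count of 0 allows.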

Other observations

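Markers of neural and primitive endoderm cells, in which retinoic acid genes are known to act, varied more among the clones than over the doses. Summed over 8 neural markers, levels were 75.6 and 81.9 CPM in untreated cells, 33.1 to 43.2 CPM at the top doses, 127 to 216 CPM in weak clones, 92.3 to 132 CPM in medium and 20.1 to 88.4 CPM in strong clones, with *Tubb3* the highest in each class of clones. Summed over 10 primitive endoderm markers, they were 571 and 623 CPM in untreated cells, 864 to 905 CPM at the top doses, 1243 to 2956 CPM in weak, 525 to 707 CPM in medium and 469 to 2360 CPM in strong clones, with *Sparc* the highest in all groups. These sums follow *Sparc*, at 1702 ± 792 CPM (SD, n = 3) in weak and 649 ± 345 CPM (SD, n = 9) in strong clones. Of 8 tested genes of this list, *Gata6*, *Lama1* and *Sox17* were instead higher in strong than in weak clones (6.82-fold, 3.43-fold and 5.10-fold; edgeR adjusted p = 0.0127, 0.000335 and 0.0499). *Sparc* was the 1 called lower, and 32.5% of all genes were called in this comparison. *Gata6* ran from 3.10 to 85.4 CPM over the strong clones. The part of these markers in the levels of *Cyp26a1*, *Dhrs3* or *Rarg* was not tested.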
